A study of Mus musculus with 4 samples.

Results

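TFIIB was located by chromatin immunoprecipitation and sequencing (ChIP-seq) in whole hearts of C57BL/6 mice, and the regions described here are the 1130 start-site regions that overlap a CpG island and were built from 1 called interval, called members below. They are 5.55% of the 20364 regions in the deposited table and 11.3% of the 9969 regions centred within 1000 bp of a gene start. They were chosen by 4 properties given for each region: a centre at most 1000 bp from a gene start, at least 1 CpG island, exactly 1 called interval, and no start of a gene on the opposite strand within the same 1000 bp. The last property set aside 86 regions that met the other conditions. The comparison set throughout is the 6197 regions that meet the same conditions but were built from several intervals, and 1553 start-site regions without an island are given beside them in places. The number of intervals chose the regions, so it is not itself a finding. Signal and length, which come from the same calls, are given as descriptions without tests. Interval counts are totals over the 3 ChIP libraries together. How many libraries contributed to each region's count was not tested. A lone interval may therefore stem from a single unreplicated library, and the count is not read as a property of the promoter alone.

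The series holds 1 library from hearts of 12 week old male mice kept for 4 days with a surgically narrowed aorta (transaortic coarctation, TAC), 1 from hearts of neonates aged 1 to 2 days, 1 from normal hearts of adults aged 12 weeks, and 1 of input DNA. No group has a replicate, and the labels give neither the number of hearts behind a library nor the sex of the neonates or of the untreated adults. The tables name the ChIP libraries by codes that match no label, so the 3 conditions were not compared, and every value below is over all ChIP libraries as the authors merged them. All 7 cardiomyocyte markers (Myh6, Tnnt2, Tnni3, Actc1, Ttn, Ryr2 and Actn2) were in the gene table, with peak values of 31 to 207. Of the macrophage and leukocyte markers 6 of 9 were listed, with peak values of 12 to 160. All 6 endothelial markers (21 to 133), all 6 of smooth muscle and pericytes (13 to 33) and 5 of 6 fibroblast markers (20 to 83) were listed. Of 4 markers each, 2 neuronal and Schwann, 2 epicardial and no erythroid markers were listed under the symbols used. Of a longer set of 14 erythroid genes 5 were listed. Total read counts per library were not in the tables, so depth is unknown.

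TFIIB, the product of Gtf2b, is a general transcription factor: it joins TBP on the core promoter and places RNA polymerase II over the start site. CpG islands are stretches of DNA that keep many CpG dinucleotides, and they cover the starts of most housekeeping genes and of many genes that direct development. Core promoters in islands often lack a TATA box and carry sites for factors such as SP proteins, ETS factors, NRF1, YY1 and NF-Y. In genes of the late cell cycle a pair of elements is well known, an NF-Y box upstream and a cell cycle homology region (CHR) near the start, which is bound by the MuvB complexes that switch these genes between rest and division.

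The sequences below are RefSeq promoter windows of assembly GRCm38.p6, from 250 bases before to 50 bases after the start, written from 5′ to 3′ along the gene, with every motif match in capitals. Cell cycle promoters with both an NF-Y box and a CHR are shown first. A CHR was more frequent among the 1-interval regions than among island regions of several intervals, but about as frequent in all promoters. These promoters were picked for their matches, after the matches had been seen. Plk1, a mitotic kinase, has its window at chr7:122159185-122159484 on the plus strand. Cenpf, a kinetochore protein, lies at chr1:189688037-189688336, Racgap1, which is needed for cytokinesis, at chr15:99651607-99651906, and Spc25, a subunit of the NDC80 kinetochore complex, at chr2:69206164-69206463, all on the minus strand.
Plk1: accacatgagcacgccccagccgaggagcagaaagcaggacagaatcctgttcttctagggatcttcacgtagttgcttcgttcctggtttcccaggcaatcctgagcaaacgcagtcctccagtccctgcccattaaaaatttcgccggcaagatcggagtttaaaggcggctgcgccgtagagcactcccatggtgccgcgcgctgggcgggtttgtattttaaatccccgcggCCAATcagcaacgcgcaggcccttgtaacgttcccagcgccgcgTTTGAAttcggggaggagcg
Cenpf: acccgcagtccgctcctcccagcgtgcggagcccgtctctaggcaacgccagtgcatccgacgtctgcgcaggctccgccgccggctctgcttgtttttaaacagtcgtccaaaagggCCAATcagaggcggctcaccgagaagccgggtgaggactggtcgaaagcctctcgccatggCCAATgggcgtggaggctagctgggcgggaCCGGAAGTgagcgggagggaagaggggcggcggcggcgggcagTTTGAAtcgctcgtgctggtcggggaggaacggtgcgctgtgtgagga
Racgap1: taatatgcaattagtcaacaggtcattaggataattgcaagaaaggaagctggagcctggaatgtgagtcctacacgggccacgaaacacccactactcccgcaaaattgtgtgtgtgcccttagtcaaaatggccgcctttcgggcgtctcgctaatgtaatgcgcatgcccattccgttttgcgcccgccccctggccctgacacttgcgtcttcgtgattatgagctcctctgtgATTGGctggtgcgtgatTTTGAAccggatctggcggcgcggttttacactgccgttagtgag
Spc25: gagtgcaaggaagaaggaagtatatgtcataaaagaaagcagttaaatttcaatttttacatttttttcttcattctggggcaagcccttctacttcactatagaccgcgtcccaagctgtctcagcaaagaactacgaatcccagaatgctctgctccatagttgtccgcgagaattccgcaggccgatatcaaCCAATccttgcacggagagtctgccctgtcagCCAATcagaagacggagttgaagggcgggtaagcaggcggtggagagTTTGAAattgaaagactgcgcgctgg

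In Plk1 the capitals mark an NF-Y box whose first base is at -14 and a CHR at 31, counted from the start. Cenpf has NF-Y boxes at -132 and -71, an ETS site at -41 and a CHR at 3. Racgap1 has an NF-Y box at -12 and a CHR at 6. Spc25 has NF-Y boxes at -55 and -23 and a CHR at 25.

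Promoters of DNA replication genes with an E2F match are shown as a set of their own, because neither has a CHR. Mcm6, a subunit of the replicative helicase, lies at chr1:128359656-128359955, and Pola1, the catalytic subunit of DNA polymerase alpha, at chrX:93632106-93632405, both on the minus strand.
Mcm6: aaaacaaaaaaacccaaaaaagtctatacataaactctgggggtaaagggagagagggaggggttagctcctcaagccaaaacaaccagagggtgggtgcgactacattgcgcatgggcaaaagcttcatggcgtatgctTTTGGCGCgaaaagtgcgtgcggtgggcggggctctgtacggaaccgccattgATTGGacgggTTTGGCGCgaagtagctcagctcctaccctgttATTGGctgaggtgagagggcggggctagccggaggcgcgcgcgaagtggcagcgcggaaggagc
Pola1: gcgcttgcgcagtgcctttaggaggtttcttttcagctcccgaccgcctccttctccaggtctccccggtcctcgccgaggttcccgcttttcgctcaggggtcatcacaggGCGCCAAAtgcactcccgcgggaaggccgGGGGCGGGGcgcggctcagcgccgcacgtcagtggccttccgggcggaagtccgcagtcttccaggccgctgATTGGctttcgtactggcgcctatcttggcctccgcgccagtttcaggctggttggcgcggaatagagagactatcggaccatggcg

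Mcm6 has E2F matches at -110 and -47 and NF-Y boxes at -57 and -14. Pola1 has an E2F match at -138, an SP site at -109 and an NF-Y box at -37.

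Of the remaining windows, Nppc is shown because it is 1 of 2 with a TATA box at the usual place, Hoxd8 as a developmental gene, and Snx11 because its peak value was among the highest. Nppc encodes C-type natriuretic peptide and lies at chr1:86670524-86670823 on the minus strand. Hoxd8, a homeobox transcription factor, lies at chr2:74704365-74704664 on the plus strand, and Snx11, a sorting nexin, at chr11:96777506-96777805 on the minus strand.
Nppc: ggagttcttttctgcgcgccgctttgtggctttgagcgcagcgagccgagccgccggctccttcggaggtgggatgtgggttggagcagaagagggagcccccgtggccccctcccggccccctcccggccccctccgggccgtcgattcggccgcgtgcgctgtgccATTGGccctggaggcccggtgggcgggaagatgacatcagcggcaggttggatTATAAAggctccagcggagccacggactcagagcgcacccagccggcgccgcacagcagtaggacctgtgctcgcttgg
Hoxd8: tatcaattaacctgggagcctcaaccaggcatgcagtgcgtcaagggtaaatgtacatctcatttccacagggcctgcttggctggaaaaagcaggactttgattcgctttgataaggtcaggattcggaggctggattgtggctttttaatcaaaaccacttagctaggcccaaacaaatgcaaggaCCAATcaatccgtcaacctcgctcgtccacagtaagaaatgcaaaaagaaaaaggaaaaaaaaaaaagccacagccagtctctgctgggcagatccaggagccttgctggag
Snx11: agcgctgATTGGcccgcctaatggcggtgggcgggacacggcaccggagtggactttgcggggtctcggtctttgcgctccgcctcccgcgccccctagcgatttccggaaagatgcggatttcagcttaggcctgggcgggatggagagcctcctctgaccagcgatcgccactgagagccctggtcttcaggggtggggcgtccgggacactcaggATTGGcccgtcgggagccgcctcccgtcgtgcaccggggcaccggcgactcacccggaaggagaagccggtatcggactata

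Nppc carries the TATA box at -29 and an NF-Y box at -82. The Hoxd8 window carries an NF-Y box at -62, with 6 CpG sites and 46.7% G and C. It is far poorer in CpG than the Snx11 window, which has 31 CpG sites, 67% G and C, and NF-Y boxes at -243 and -32. Each window lies at the most upstream start in RefSeq, which need not be the start that placed the region. The base content of the Hoxd8 window may therefore not be that of the start within its region.

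The signal at these regions was low. The gene table gives a peak value, a whole number of unstated scale that is the highest of any library over all regions of a gene, so it belongs to the region itself only where the gene has no other. In the 565 regions whose start-site genes had no other region the median peak value was 17 (95% interval 16 to 18, quartiles 13 and 24, range 8 to 49). In 2959 such regions of several intervals it was 36 (35 to 36, quartiles 27 and 47, range 9 to 260), and in 608 without an island it was 20 (18 to 21, quartiles 14 and 29). Over all 14469 genes the median was 34. The highest value within a region of several intervals, which is longer, can be higher by construction. The sets overlapped: 22 of the 565 regions (3.89%, exact 95% interval 2.46 to 5.84) exceeded 34, against 1576 of 2959 regions of several intervals (53.3%), and 156 regions of several intervals (5.27%) were at or below 17. Intervals of shares and medians here are exact binomial and cover counting over regions only.

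**Figure D1:**
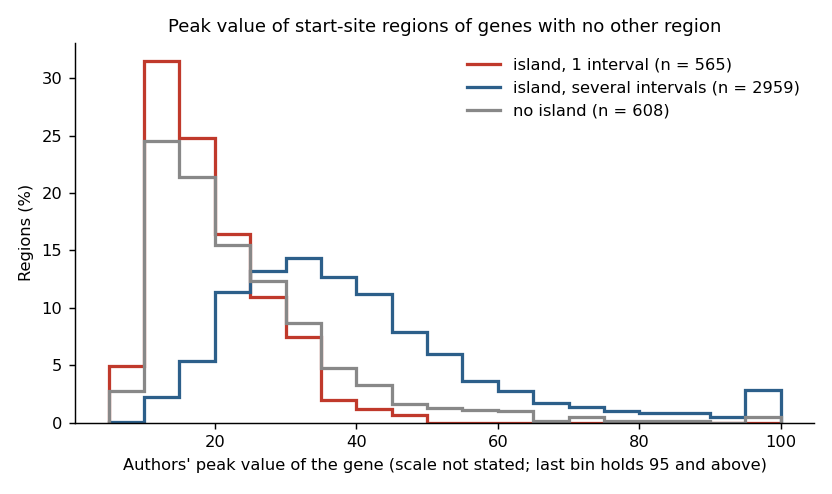
Distribution of the authors' peak value in bins of 5 (x axis, scale not stated) as a percentage of regions (y axis), for genes with no other region. The red line, island regions of 1 interval (n = 565), lies to the left of the blue line, island regions of several intervals (n = 2959), with medians of 17 and 36, and near the grey line of regions without an island (n = 608, median 20).

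The share of regions with 1 interval was lower in each higher class of peak value. Among genes with no other region, 1-interval regions were 231 of the 321 island regions with a peak value up to 15 (72%), 139 of 327 from 16 to 20 (42.5%), 140 of 881 from 21 to 30 (15.9%), 46 of 855 from 31 to 40 (5.38%) and 9 of 1140 above 40 (0.789%). Over all 7327 island start-site regions the share of 1 interval was 15.4%, and this is the background for every share of regions below. Over the 7379 genes with such a region it was 15.3% (1132 genes), the background for every gene list. A gene was counted as of 1 interval if any of its island start-site regions was.

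Among regions assigned to 1 gene that had no other, Dap, which modulates autophagy, and Snx11 had the highest peak value, 45. Mrps33, a subunit of the mitochondrial ribosome, had 42, and Sc5d, an enzyme of cholesterol synthesis, had 41. Pold3, a subunit of DNA polymerase delta, and Rad51c, which acts in homologous recombination, had 38 and 37. Skap2, Tm2d1 and Vps4b each had 35, and Cacng2, Dhx15 and Napg each had 34. These values lie near the middle of all genes: 45 is at the 72nd percentile of the gene table and 34 at the 49.2nd. Spryd4 reached 49, the highest of the 565, in a region that is also assigned to a second gene.

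At the other end of the range, Abhd3, Cidea, Hcrtr1 (an orexin receptor), Lama3 (a laminin chain) and Tram1l1 had a peak value of 8, and Celsr1 (an atypical cadherin of planar cell polarity), Clstn2 and Cnnm1 had 9. A value of 8 is at the 0.159th percentile of all genes. Nppa, Nppb, Myh6, Myh7, Acta1 and Ankrd1, which mark cardiac load or the sarcomere, had no island start-site region among the sets compared here. Regions with starts on both strands were not counted. Gtf2b, the gene of TFIIB itself, had a peak value of 204 and an island start-site region of several intervals. The natriuretic peptide gene that did belong here was Nppc, with a region of 274 bp and a peak value of 12.

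The regions were shorter than those of several intervals and about as long as those without an island. Their centres lay at a median of 37.5 bp past the start (27 to 52). For several intervals the median was 77 bp, and without an island 36 bp. The centre was upstream of the start in 40.9% of members. Their median length was 1004 bp (976 to 1028, quartiles 764.5 and 1286), against 1543 bp (1523 to 1559) for regions of several intervals and 1017 bp without an island. They reached from a median position of -461 bp to 528.5 bp about the start, against -670 and 835 bp for regions of several intervals. Length and peak value rose together among the 565 regions (Spearman's rho 0.476, a description across regions of the same merged libraries). The longest were at Gse1 (3457 bp), Arid3a (3456 bp), which encodes an AT-rich DNA-binding factor, and Bcl6b (2775 bp), a transcriptional repressor. The shortest were at Chgb (272 bp), which encodes a granin of secretory vesicles, Nppc (274 bp) and the predicted gene EG545645 (275 bp).

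The called interval's own point lay closer to the start than the region's centre in 56.9% of regions. Its median position was -9 bp (-18 to 0) and its median distance 94 bp (86 to 103), against 70 bp (67 to 74) for regions of several intervals, where the median of the region's points was taken, which varies less than a lone point by construction. The point was within 100 bp of the start in 51.6% (48.7 to 54.6), against 60.2% (59 to 61.4) for several intervals, and over 500 bp away in 10.3% (8.56 to 12.2), against 6.34% (5.75 to 6.98). The region covered the start itself in 89.1%, against 98.9% for several intervals and 89.1% without an island. Regions of several intervals are longer, and a longer region covers the start more often by construction. Among the 565 regions, those with a more distant point tended to have lower peak values (rho -0.258). At the 1000 bp limit, the regions of Efs and Polr2l lay just inside with centres at -996 bp, and those of Sall4 and Nfatc4 just outside at 1002 and 1005 bp. At Copg2 the gene's coordinates in the 2 tables disagree, and its interval point was not placed.

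**Figure D2:**
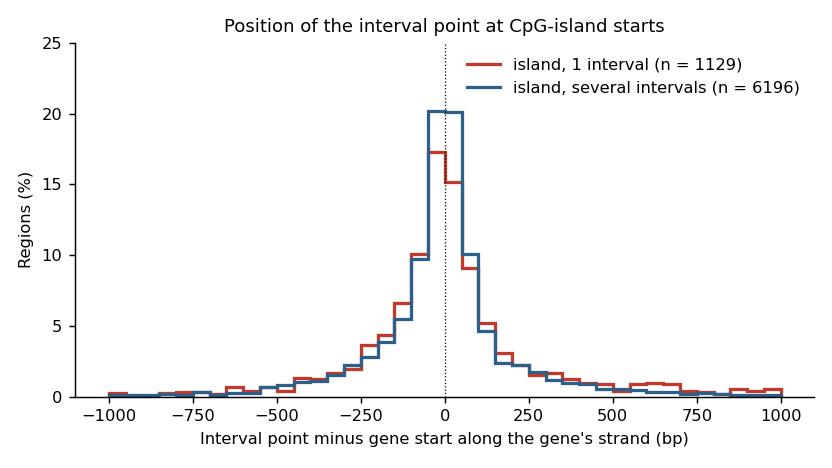
Position of the interval point relative to the gene start along the gene's strand (x axis, bp, bins of 50) as a percentage of regions (y axis) for island regions of 1 interval (red, n = 1129) and of several intervals (blue, n = 6196). Both peak at the start, and the red line is lower there and higher beyond 500 bp, where it holds 10.3% of regions against 6.34%.

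Several properties of the genes differed by a few percentage points or less. The gene had 1 region in 50.1% of the 1130, 2 regions in 27.5% and 3 or more in 22.4%, against 47.9%, 28.4% and 23.7% for several intervals. Median gene length was 22516.5 bp, against 23451 bp, and the next region lay within 10 kb in 30.9%, against 32.5%. The gene was on the plus strand in 51.2%, against 50.4%. A second island in the region was rarer, with 22 of the 245 island regions that hold 2 or more islands built from 1 interval (8.98%, 5.71 to 13.3), below the 15.4% of all. Longer regions, such as those of several intervals, can hold more islands by construction.

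Genes of cell division were of 1 interval more often than genes at large. Of 48 cell cycle genes with an island start-site region 18 were of 1 interval (37.5%, 24 to 52.6), and of 32 DNA replication genes 12 (37.5%, 21.1 to 56.3), beside 15.3% of all genes. The peak values in parentheses and the medians of lists, here and below, are those of the gene. They belong to the region only where the gene has no other. The cell cycle group held Aurkb, a mitotic kinase (peak value 54), Bub1 of the spindle checkpoint (45), the separase gene Espl1 (35), the phosphatase gene Cdc25a (28), Ccnf (26) and the kinase gene Ttk (24). The replication group held Chaf1a of the histone chaperone CAF-1 (51), Pold3 (38), Uhrf1, which recruits the maintenance DNA methyltransferase (37), Gins3 (32), Orc2l of the origin recognition complex (31) and Rrm1 of ribonucleotide reductase (27). Of these 12 genes only Ttk, Pold3, Gins3, Orc2l and Rrm1 had no other region. Mcm3, Mcm6, Mcm10, Pola1, Ccne1, Ccnb1 and Top2a were also of 1 interval and had no other region, with peak values of 26, 24, 15, 12, 23, 13 and 22.

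For the 2 lists together the median peak value of all genes with an island region was 30. It was below the 37 of all 7379 genes with such a region. Both medians include genes with other regions. A lower peak value of the gene thus went with the higher share of 1 interval. Read at equal signal, 19 of the 42 genes with no other region were of 1 interval, where the shares of all island regions in the same peak value classes give 10.4. Here and below this reading is a description, not a test. It was chosen after the values were seen, in 5 broad classes, and the signal comes from the calls that chose the regions. Whether signal accounts for the shares was not tested. DNA repair genes had 7 of 24 (29.2%, 12.6 to 51.1), among them Fancm (50), Rad51c (37), Chek1 (24), Fanca (23) and Xrcc1 (17), of which Fancm and Fanca had other regions. At equal signal 5 of 17 were of 1 interval, where the classes give 3.3. Centrosome and cilium genes had 8 of 22 (36.4%, 17.2 to 59.3), among them Bbs9 (33), the kinesin gene Kif3b (27), Stil (26) and Ift81 (23), of which only Kif3b had no other region. At equal signal 4 of 12 were, where the classes give 2.4.

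Genes that direct development had the lowest median peak value of members among the lists. Of 35 developmental transcription factors with an island region 12 were of 1 interval (34.3%, 19.1 to 52.2), with a median peak value of 11. Sox17, an endodermal and endothelial factor, had 43 in a gene with 2 regions. The next were Hoxa4 (14), Hoxd8 (13), Sox11 (13, with 2 regions), Lhx2 (12) and Otx1 (11). All 3 Hox genes with an island region that is not shared between strands were of 1 interval, and Hoxb4 had 2 such regions, centred at -82 and 661 bp. At equal signal 7 of 17 genes were of 1 interval, where the peak value classes give 6.9.

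Semaphorins, ephrins and guidance genes had 11 of 34 (32.4%, 17.4 to 50.5), among them the receptor gene Epha2 (36), Efna2 (26), Slit3 (26), Efnb3 (23), Ephb1 (23) and Plxna3 (18), of which only Efnb3 and Ephb1 had no other region. At equal signal 5 of 11 were of 1 interval, where the classes give 3.2. Ion channels had 8 of 22 (36.4%, 17.2 to 59.3), among them the calcium channel subunit gene Cacna2d2 (33), Trpc1 (22), Cacnb2 (21) and the pacemaker channel gene Hcn2 (19), of which only Trpc1 had no other region. At equal signal 3 of 6 were, where the classes give 2.2. Of growth factors and receptors 6 of 32 were of 1 interval (18.8%), Bmp7 (20), Pdgfc (19), Fgf2 (16), Inhbb (13), Fgfr2 (11) and Fgf16 (10), with other regions at Bmp7 and Fgf2. Of Wnt genes 3 of 24 were (12.5%), the inhibitor and target Axin2 (26), Frzb (20) and Dkk3 (12). The last 2 lists were near the background.

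Lists of other cell types had few genes with an island start-site region. Of fibroblast and extracellular matrix genes 8 of 31 were of 1 interval (25.8%, 11.9 to 44.6), among them Ltbp2 (53), Col12a1 (21), Col6a2 (17), Fbln1 (14), Fbn2 (13) and Mmp16 (10), with other regions at Ltbp2, Col6a2 and Fbn2. At equal signal 5 of 13 were of 1 interval, where the classes give 3.9. Of 5 macrophage and leukocyte genes 3 were (60%, 14.7 to 94.7), Coro1a (54), Cd14 (41) and Ikzf1 (16), all with other regions. Of 6 neuronal and Schwann genes 4 were (66.7%, 22.3 to 95.7), Celsr3 (50), Shank3 (29), Ret (15) and Celsr1 (9), with other regions at Celsr3 and Shank3. The centres of Celsr3, Shank3 and Ret lay over 500 bp from the start, and with a limit of 500 bp the share was 25%. Of 14 endothelial genes 2 were (14.3%), Sox17 and Flt4 (20). With a mixture of cells, fewer cells of a type and less TFIIB per cell cannot be told apart.

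Several lists had no member. Of listed genes with an island start-site region, none of 55 cytosolic ribosome genes was of 1 interval (exact upper limit 6.49%). Nor was any of 46 oxidative phosphorylation genes (7.71%), 22 splicing genes (15.4%) or 13 hypertrophy and stress markers (24.7%). In that order the median peak values were 60, 44, 50 and 140, with genes that had other regions included. The lists do not hold every gene of their kind. Outside them, the cytosolic ribosome gene Rpl23a (29, with 3 regions) and the splicing factor gene Zrsr2 (25) were members. Among ribosome genes with no other region the same peak value classes give 0.4 of 25, and among oxidative phosphorylation genes 1.6 of 21. There was also none among 8 cardiomyocyte, 5 smooth muscle, 1 erythroid and 1 epicardial genes, too few to read. Listed chromatin and Polycomb genes had 2 of 34 (5.88%, 0.72 to 19.7), Phf19 (51, with 2 regions) and Suv39h1 (16). The deacetylase gene Hdac6 (19), not on the list, was also a member. Mitochondrial ribosome genes had 8 of 43 (18.6%), with Mrps33 (42), Mrpl24 (37), Mrps25 (31), Mrps15 (30), Mrpl33 (27) and Mrps10 (25), with other regions at Mrpl24, Mrps15 and Mrpl33. At equal signal 5 of 20 were of 1 interval, where the classes give 2.2. Proteasome genes had 3 of 23 (13%), Psmc4 (23), Psmb5 (22, with 2 regions) and Psmb7 (22).

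**Figure D3:**
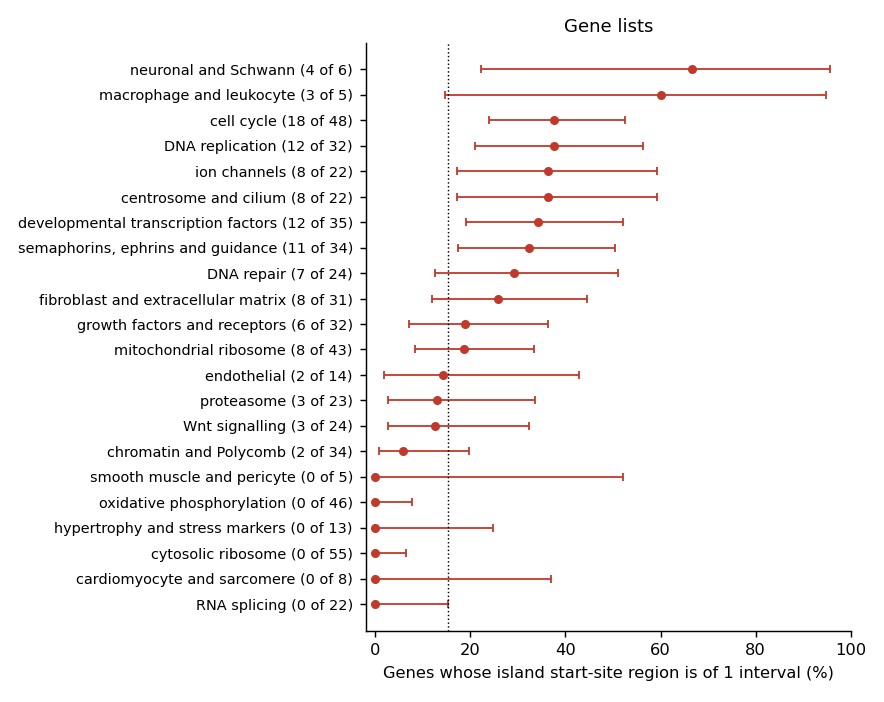
Share of genes in each list whose island start-site region is of 1 interval (x axis, percent; points, with exact 95% intervals as bars), for lists with at least 5 such genes; the dotted line is the 15.3% of all genes. Cell cycle, DNA replication, developmental factors, guidance, ion channels and centrosome genes lie to the right of the line, and cytosolic ribosome and oxidative phosphorylation genes at 0.

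The X chromosome stood apart from the autosomes. There 53 of 177 island start-site regions were of 1 interval (29.9%, 23.3 to 37.3), against 1077 of 7150 on the 19 autosomes (15.1%, 14.2 to 15.9), where the shares ran between 10.7% on chromosome 1 and 18.3% on chromosome 2. The X-linked members had a median peak value of 14 (n = 40 with no other region), against 18 (n = 525) for autosomal members, and a median length of 817 bp against 1010 bp. The X-linked regions of several intervals were lower too, with a median of 26 (n = 90), against 36 (n = 2869) on autosomes. At equal signal the counts were close: 40 of the 130 X-linked regions of genes with no other region were of 1 interval, and the peak value classes of all chromosomes give 41.7. Up to a peak value of 15 the share was 79.3% (60.3 to 92) on the X, against 71.2% (65.7 to 76.4) on autosomes, and from 16 to 20 it was 38.7% (21.8 to 57.8), against 42.9% (37.2 to 48.8).

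The X-linked members ran from Zfp275 with a peak value of 30 down to Fgf16, Ercc6l, Morc4 and Rab9 with 10; these and the X-linked genes named next were chosen after their values were seen. Zrsr2, a splicing factor, had 25, and Cenpi, a centromere protein, had 23. The deacetylase gene Hdac6 had 19, Pgk1, a glycolytic enzyme used widely as a housekeeping gene, had 18, and Taf1, the largest subunit of TFIID, had 17. Maoa, which breaks down monoamines, and the histone methyltransferase gene Suv39h1 had 16, and Apln, which encodes apelin, had 12. Males carry 1 X chromosome. The TAC mice were male, the sex of the others is not given, and what copy number contributes was not tested. Start-site regions without an island were of 1 interval in 55.4% (42.5 to 67.7) on the X, against 46.1% (43.5 to 48.7) on autosomes.

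**Figure D4:**
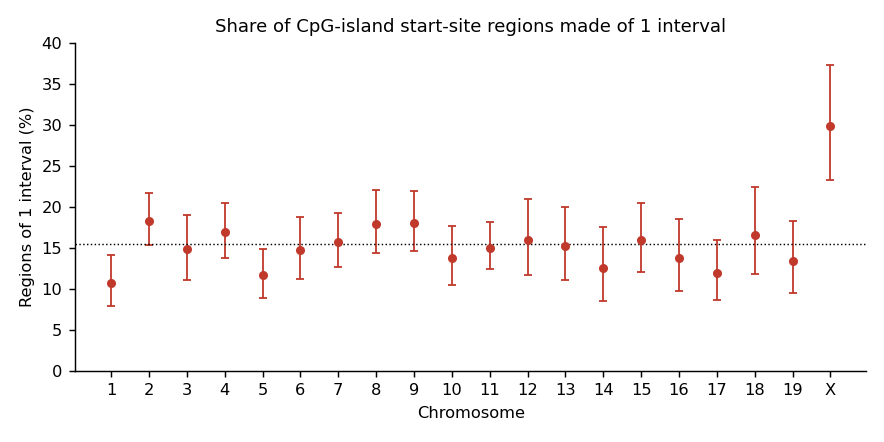
Share of island start-site regions of 1 interval (y axis, percent; points, with exact 95% intervals as bars) on each chromosome (x axis); the dotted line is the 15.4% of all. The autosomes lie between 10.7% and 18.3%, and the X chromosome lies at 29.9%.

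The promoter windows of 830 member genes (76% of 1092) were found in RefSeq, with 4890 of the genes of several intervals (79.6%) and 27025 in the whole table. These shares are under 80%, so base content and motifs describe the matched windows and are void as a check of the whole set. Members had a median G and C content of 61% (60 to 61.7), against 63% (62.7 to 63.3) for several intervals, and 20 CpG sites, against 24. The ratio of observed to expected CpG was 0.76 (0.746 to 0.78), against 0.817 (0.81 to 0.824), with 0.408 without an island. From the lowest to the highest of 4 equal classes of that ratio the share of 1 interval was 17.8%, 16.6%, 13.6% and 10.1%, beside 14.5% of all matched windows.

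For 10 motifs, searched for exact letters, members mostly had the shares of regions of several intervals. These were CCAAT of NF-Y, GGGGCGGGG of SP factors, CACGTG (E-box), CCGGAAGT (ETS), AAGATGGCG (YY1), TGACGTCA (CREB), TTTGGCGC (E2F) and GCGCATGCGC (NRF1) on both strands of the window, TATAAA between -40 and -20 on the gene's strand, and TTTGAA (CHR) between -50 and 50 on the gene's strand. The letters can overlap, and a match is a description of letters, not of binding. NF-Y boxes were in 41.3% of member windows, against 38% for several intervals and 38% of all promoters. SP sites were in 26.4%, against 26.5% and 11.6%, ETS sites in 8.8%, against 8.9% and 3.99%, and E-boxes in 9.76%, against 11.5% and 7.24%. YY1 sites were in 3.61%, against 3.21% and 1.48%, CREB sites in 3.01%, against 3.62% and 1.85%, and E2F sites in 1.69%, against 1.19% and 0.537%. No motif was found in 30.5% of members, against 31.3% and 44.4%.

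The CHR, NRF1 and TATA motifs had shares whose intervals lay apart from those of several intervals over all matched genes. The CHR was in 2.77% of members (1.76 to 4.13), against 1.1% (0.831 to 1.44) for several intervals. The share in members was close to the 2.63% of all promoters. In start-site regions without an island it was 2.13% (1.36 to 3.18), an interval that overlaps that of members. Counted the other way, 23 of the 77 matched island windows with a CHR were of 1 interval (29.9%, 20 to 41.4), beside 14.5% of all. NRF1 sites were in 1.2% (0.579 to 2.2), against 2.66% for several intervals, 0.981% of all promoters and 1.02% without an island. A TATA box was in 2 of 830, Nppc and Tha1 (0.241%, 0.0292 to 0.868), against 1.21%, 2.21% and 2.41% in the same order. Among genes with no other region the intervals overlapped for each: the CHR was in 3.18% (1.75 to 5.28), against 1.28% (0.866 to 1.82), NRF1 in 0.909% (0.248 to 2.31), against 2.39% (1.81 to 3.09), and TATA in 0.227% (0.00575 to 1.26), against 0.982% (0.623 to 1.47). Searched over the whole window on both strands, the CHR letters were in 16.7% (14.3 to 19.5), against 9.78% (8.96 to 10.6), while the TATA letters were in 6.27%, against 6.24%. The windows with a CHR were those of Traip (peak value 48), Asf1b (38), Espl1 (35), Cd2bp2 (33), Gins3 (32), Ccdc46 (30), Polq (28), Ccnf (26), Gpsm2 (22), Plk1 (22), Casc5 (20), Ccdc34 (19), Cenpf (19), Igf2bp3 (18), Lin54 (18), Mphosph1 (14), Racgap1 (14), Spc25 (12) and 5 clone or predicted genes. Of those named, Traip, Asf1b, Espl1, Ccnf, Casc5, Igf2bp3, Lin54 and Mphosph1 had other regions. Lin54 encodes the subunit of MuvB that binds the CHR.

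Within cell cycle and DNA replication genes, where 27 of 30 members (90%) and 40 of 50 genes of several intervals (80%) were matched, the NF-Y box was in 77.8% of members (57.7 to 91.4), against 57.5% (40.9 to 73). The CHR was in 25.9% (11.1 to 46.3), against 17.5% (7.34 to 32.8), and E2F sites in 14.8%, against 10%. These intervals overlap. The E2F members outside the lists included Kif18a (19, with 2 regions), Arhgap11a (19) and Blvra (26).

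**Figure D5:**
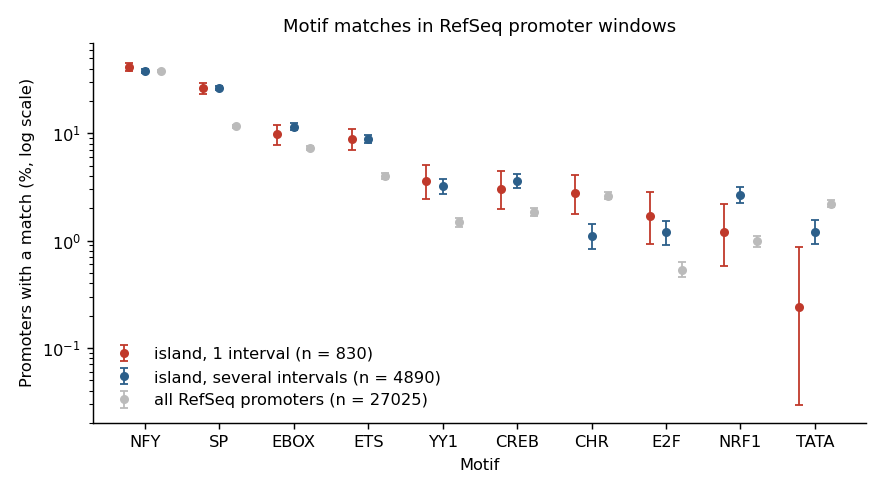
Share of promoter windows with a match (y axis, percent, log scale; points, with exact 95% intervals as bars) for 10 motifs (x axis) in members (red, n = 830), island regions of several intervals (blue, n = 4890) and all RefSeq promoters (grey, n = 27025). Members lie near the blue points except for CHR, where they are higher, and NRF1 and TATA, where they are lower.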

How the data were processed

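TFIIB ChIP-seq of 1 library per group was deposited as 1 table of regions and 1 of genes. Per the submitters' processing notes the genome build is mm9; the aligner, interval caller, its thresholds and any scaling to depth: not given in the sources used here. Per the file headers, the region table holds positions, lengths, distances and deposited counts of intervals, islands and genes per region. The gene table's peak value, deposited by the authors in whole numbers, is a signal of unstated unit. As a maximum over libraries and regions it rises with a gene's number of regions. The distributions and the readings at equal signal were therefore limited to genes with no other region. The medians of gene lists and the values of named list genes include genes with other regions. The 15 columns of per-library values match no label and were not used, so the planned view of TAC, neonate and adult hearts was not made.

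Regions were classified with pandas 2.3.3 in Python 3.11.15. Shares have exact Clopper-Pearson intervals and medians exact binomial order-statistic intervals at 95% (scipy 1.17.1); regions are not replicates, and no test was made. The start-site rule, the 24 gene lists (1248 entries) and the motifs were chosen with earlier results of these data known. Genes were named by rule: the 12 highest and 8 lowest peak values of genes with no other region, the regions nearest the 1000 bp limit, up to 6 genes a list, and the longest and shortest regions; X-linked, motif and further cell cycle genes were added after their values were seen, as was the reading at equal peak value, in 5 classes. Some genes within the naming rule are not reported here. Promoters of 300 bases came from RefSeq (GRCm38.p6), at the most upstream listed start; 49 genes with start-site regions of more than 1 kind were left out. The rule, intervals and motif search were checked on simulated data. Alternatives were other distance limits, keeping regions with starts on both strands, other choices of genes and other motif windows.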

Additional observations from a re-analysis of the deposited data

How the results depend on the processing

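Of 92 alternatives tried over 40 results, 86 stayed within the interval of the value reported or within 1.5 times a count. For short gene lists these intervals are so wide that an alternative could hardly fall outside, so the count does not measure their stability. The neuronal and Schwann share, for example, went from 66.67% (22.28 to 95.67) to 25% with a limit of 500 bp and still counted as within. With a limit of 5000 bp the share of 1-interval regions was 16.45%, and with regions of opposite starts kept it was 14.55%. The median peak value over all 1130 regions, taking the lowest value among their genes, was 21, which includes genes with other regions. Searched over the whole window on both strands, the TATA box was in 6.27% of members, against 6.24% for several intervals, and the CHR in 16.7%, against 9.78%. Among genes with no other region the SP site was in 22.7%. Wider windows hold more letters by construction; the cause of the other changes was not tested. No paired analysis was possible because each group has 1 library. Depth per library is unknown, and with it how often a weak interval was missed.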
